A study of Rattus norvegicus with 36 samples.

Results

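*Drd1* (ENSRNOG00000023688), *Tac1* (ENSRNOG00000007374), *Pdyn* (ENSRNOG00000026036) and *Ppp1r1b* (ENSRNOG00000028404) are genes of the striatal projection neurons, and the first 3 mark the neurons of the direct pathway. They were read as 4 rows out of 23965 in a table of raw RNA-seq counts, chosen by their Ensembl identifiers. All 4 passed the minimum mean count, as did 12657 genes altogether. The libraries came from the striatum of 36 male Sprague Dawley rats aged 2 months, with 1 library per animal and 6 animals in each of 6 groups. Wildtype (WT) rats and BACHD rats (TG), which carry the human huntingtin locus with an expanded repeat on a bacterial artificial chromosome under its own regulatory sequences, had been raised in a standard environment (SE), an enriched environment (EE) or with maternal separation (MS, written ELS in the labels). The groups are named WT_SE, TG_SE, WT_EE, TG_EE, WT_MS and TG_MS. WT animals were littermates of the TG animals, EE animals lived in larger groups with changing objects from weaning, and MS animals were taken from the dam daily as pups and then housed like SE animals.

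Striatal projection neurons form a direct pathway to the output nuclei of the basal ganglia and an indirect pathway that reaches them through further relays. Direct pathway neurons carry the dopamine D1 receptor, encoded by *Drd1*, which raises cyclic AMP, and they release substance P, made from the *Tac1* precursor, and dynorphin, made from the *Pdyn* precursor. DARPP-32, encoded by *Ppp1r1b*, is present in projection neurons of both pathways and becomes an inhibitor of protein phosphatase 1 once protein kinase A has phosphorylated it. Loss of transcripts of projection neurons is a known feature of Huntington disease. In bulk tissue, fewer cells of a type and less RNA per cell cannot be told apart.

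The promoters of the 2 peptide precursors are shown because both peptides are used as markers of the same neurons. The motifs before the starts used differ in part, and both windows held a CCAAT box. Sequences are from RefSeq on the rat build GRCr8, where 3 of the 4 genes had an entry by symbol and *Ppp1r1b* had none. The 250 bases before the *Pdyn* start, at chr3:137366504-137366753 on the minus strand, lie outside the annotated gene. Capitals mark a CCAAT box read on the opposite strand (ATTGG, at -87 to -83 from the start) and a TATA box (TATAAA, at -13 to -8). The *Tac1* segment of 30 bases, at chr4:36645373-36645402 on the plus strand, lies inside the annotated *Tac1* gene and ahead of the start that the entry uses. Its capitals mark a partial cyclic AMP response element (TGACG, read on the opposite strand at -206 to -202) and a CCAAT box at -193 to -189. A further CCAAT box of *Tac1*, on the opposite strand at -240 to -236, lay outside this segment. Of the 250 bases before the *Tac1* start, 239 lay inside the annotated gene.
Pdyn: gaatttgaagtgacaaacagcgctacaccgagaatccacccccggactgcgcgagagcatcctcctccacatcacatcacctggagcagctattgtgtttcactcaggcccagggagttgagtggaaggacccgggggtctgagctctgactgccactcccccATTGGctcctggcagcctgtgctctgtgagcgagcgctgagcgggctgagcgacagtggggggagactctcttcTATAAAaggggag
Tac1: attgCGTCAtttcgaacCCAATttggtcca

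Over both strands, the same 250 bases of 33469 rat promoters held TGACG in 18.2%, CCAAT in 34% and TATAAA in 12.9%. Neither the *Tac1* nor the *Pdyn* window held the full element TGACGTCA, which 1.59% of promoters held, nor GGGCGG, held by 30.5%, nor CAGCTG, held by 12.0%. The *Drd1* window lay wholly inside the annotated gene and is not shown. These matches describe letters only, and no binding was measured.

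Total counts per library ranged from 9895073 to 19284439, and the 4 genes together took between 0.189% and 0.304% of them. The lowest raw count of any of them in any library was 1458, so counting error was small beside the differences between animals. Levels are given as TMM-scaled CPM, counts brought to a common library total, which are not divided by transcript length and are therefore compared between groups and not between genes. Within groups the SD on the log2 scale was 0.20 for *Drd1*, 0.21 for *Tac1*, 0.21 for *Pdyn* and 0.17 for *Ppp1r1b*, against a median of 0.16 over all genes tested.

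*Drd1*, the receptor, had its highest group mean in TG_EE (205.6 ± 19.4 CPM, SD, n = 6), followed by TG_SE (202.3 ± 20.1), WT_MS (186.7 ± 28.8), TG_MS (181.4 ± 23.3), WT_EE (180.0 ± 37.2) and WT_SE (172.2 ± 20.1). The highest mean was 1.19 times the lowest. No step between neighbours in that order was larger than the SD of the more variable group. Steps between sorted neighbours tend to be small, and the SD is the spread of animals and not the error of a mean. The steps therefore do not show that the groups were alike. In SE the libraries ran from 145.2 through a median of 170.7 to 204.4 CPM in WT and from 176.8 through 205.9 to 223.8 CPM in TG. All 6 TG_SE libraries lay above the WT_SE mean, and 3 lay above every WT_SE library. In EE they ran from 142.0 through 175.1 to 241.9 CPM in WT and from 176.2 through 212.2 to 225.4 CPM in TG, where 5 of 6 TG libraries lay above the WT mean although the highest library of all was WT. In MS the ranges were 153.2 to 224.0 CPM in WT, with a median of 190.4, and 157.9 to 223.5 CPM in TG, with a median of 177.9. These 2 groups covered nearly the same range, and 1 of 6 TG_MS libraries lay above the WT_MS mean.

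*Tac1*, the substance P precursor, also had its highest mean in TG_EE (204.5 ± 40 CPM) and its lowest in WT_SE (175.9 ± 31.6), with TG_SE (192.9 ± 17.2), WT_EE (191.9 ± 28.7), TG_MS (184.4 ± 18.1) and WT_MS (181.7 ± 24.7) between them. In SE, WT libraries ran from 144.4 through 166.2 to 220.5 CPM and TG libraries from 174.3 through 190.1 to 218.2 CPM. The TG_SE libraries sat in the middle and upper part of the WT_SE range and none exceeded it. In EE, WT libraries ran from 162.0 through 180.9 to 233.1 CPM and TG libraries from 166.1 through 197.7 to 279.2 CPM, the latter being the highest value of all 36. In MS, WT libraries ran from 146.5 through 181.1 to 216.0 CPM and TG libraries from 165.7 through 180.6 to 212.3 CPM. The MS ranges overlapped almost fully, with the narrower one in TG.

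*Pdyn*, the dynorphin precursor, showed another order, with the highest mean in WT_SE (183.1 ± 22.8 CPM) and the lowest in TG_EE (166.5 ± 23), a ratio of 1.10. WT_MS (181.5 ± 32), TG_MS (171.5 ± 23.2), TG_SE (171.3 ± 11.2) and WT_EE (169.1 ± 33.1) lay between. In SE, WT libraries ran from 163.6 through 175.9 to 224.6 CPM and TG libraries from 163.4 through 167.7 to 193.2 CPM. Of the TG_SE libraries, 5 lay between 163.4 and 172.1 CPM, and the group had the smallest SD of the 6. In EE, WT libraries ran from 131.5 through 157.6 to 213.4 CPM and TG libraries from 136.9 through 167.5 to 198.5 CPM. In MS, WT libraries ran from 131.5 through 193.1 to 210.3 CPM and TG libraries from 141.1 through 172.0 to 199.5 CPM. In both, the TG range lay inside the WT range.

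*Ppp1r1b*, encoding DARPP-32, had its highest mean in TG_EE (2006 ± 285 CPM) and its lowest in WT_SE (1803 ± 166), a ratio of 1.11. The means of WT_MS (1961 ± 221), TG_MS (1841 ± 195), WT_EE (1834 ± 265) and TG_SE (1813 ± 134) lay between. Again no step between neighbours was larger than the SD, with the same limit as for *Drd1*. In SE, WT libraries ran from 1546 through 1845 to 1991 CPM and TG libraries from 1620 through 1822 to 1989 CPM, which is the same range at its upper end. In EE, WT libraries ran from 1421 through 1875 to 2197 CPM and TG libraries from 1578 through 2014 to 2415 CPM. In MS, WT libraries ran from 1586 through 1954 to 2246 CPM and TG libraries from 1596 through 1866 to 2123 CPM. The groups overlapped in every pair, so the order of the means is a description.

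**Figure D1:**
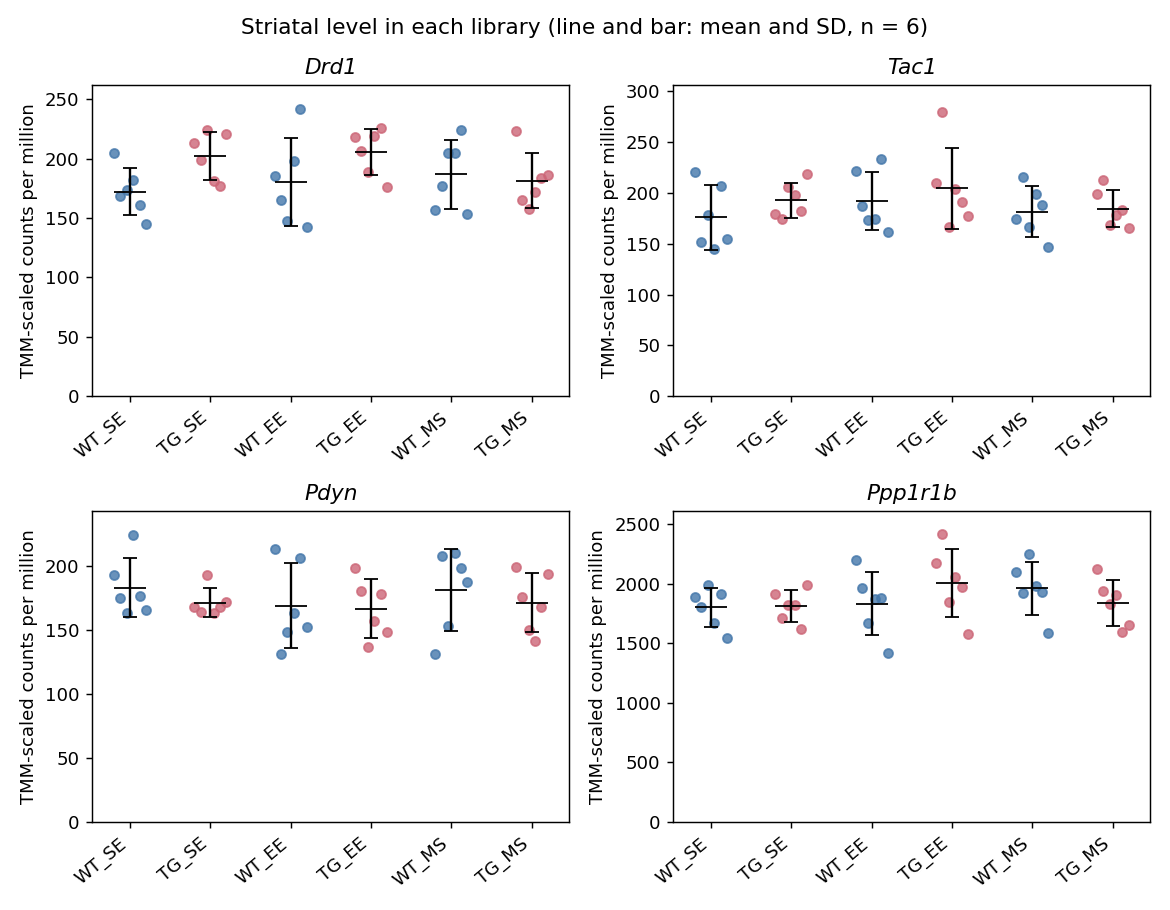
Each point is the level of 1 library in TMM-scaled CPM (vertical axis, from 0) for *Drd1*, *Tac1*, *Pdyn* and *Ppp1r1b* by group (blue WT, red TG), with the mean and SD of 6 animals in black. The 6 groups overlap for every gene, and TG_SE lies highest against WT_SE for *Drd1*, where 3 of 6 TG libraries exceed every WT library.

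To ask whether the transgene went with a change in these genes, TG and WT were compared in each environment with the edgeR quasi-likelihood test, in a model of 6 group means and 5 surrogate variables, which are patterns of variation estimated from all genes. A gene counted as called when its p, adjusted over all genes by Benjamini-Hochberg, was 0.1 or lower and its log2 fold change was 0.3 or more in size. In TG_SE/WT_SE 0 of the 4 genes were called, where 0.213% of all genes were. In TG_EE/WT_EE 0 of 4 were called against 0.411% of all genes, and in TG_MS/WT_MS 0 of 4 against 0.134%. With percentages this low, a count of 0 among 4 genes is what the background gives. No pair of groups compared was free of overlap for any of the 4 genes. Of all genes, 0.482%, 0.466% and 0.379% were free of overlap between TG and WT in SE, EE and MS. The share was 0.0711% in WT_EE/WT_SE, 0.3% in TG_EE/TG_SE, 0.363% in WT_MS/WT_SE and 0.34% in TG_MS/TG_SE. With shares this low, overlap in all 4 genes is also what the background gives.

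*Drd1* was estimated 0.14 higher in TG_EE than in WT_EE on the log2 scale (SE 0.053, 95% interval 0.034 to 0.25, adjusted p = 0.252 by edgeR). In MS the estimate was 0.15 (SE 0.057, interval 0.033 to 0.27, adjusted p = 0.474), and in SE it was -0.011 (SE 0.059, interval -0.13 to 0.11, adjusted p = 0.997). Averaged over the 3 environments the estimate was 0.094 (SE 0.031, interval 0.030 to 0.16), equal to a level 6.73% higher in TG, with an adjusted p of 0.0963 by edgeR. It was the smallest adjusted p of the 4 genes in any comparison and met the limit on p but not the minimum fold, so *Drd1* was not called, and 0.577% of all genes were. Without a minimum fold *Drd1* was called with 4.84% of all genes. The average was positive in every alternative fit, from 0.057 to 0.13, with adjusted p between 0.0319 and 0.697. The lowest adjusted p came from a fit with 1 animal left out, and the highest from the fit with 2 surrogate variables. Without surrogate variables the average was 0.127 (adjusted p = 0.458 by edgeR). With runs of 6 library numbers as covariate and no surrogate variables it was 0.134 (adjusted p = 0.283 by edgeR). The fits with 0 or 2 surrogate variables and with runs therefore did not meet the limit on p.

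*Pdyn* was estimated lower in TG than in WT in all 3 environments. The difference was -0.31 in SE (SE 0.110, interval -0.53 to -0.082, adjusted p = 0.593 by edgeR), -0.041 in EE (SE 0.099) and -0.052 in MS (SE 0.106). The SE estimate passed the minimum fold but not the limit on p, and it was -0.097 (SE 0.114) without surrogate variables, close to the log2 ratio of the group means of -0.096. Averaged over environments the difference was -0.13 (SE 0.058, interval -0.25 to -0.014, adjusted p = 0.242 by edgeR), and it stayed below 0 in every alternative fit, from -0.18 to -0.065.

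*Tac1* and *Ppp1r1b* had small estimates with intervals on both sides of 0. For *Tac1* the TG/WT difference was -0.070 (interval -0.30 to 0.16) in SE, 0.058 (interval -0.15 to 0.26) in EE and 0.069 (interval -0.15 to 0.29) in MS. For *Ppp1r1b* it was -0.097 (interval -0.22 to 0.028) in SE, 0.015 (interval -0.097 to 0.13) in EE and 0.040 (interval -0.082 to 0.16) in MS. Averaged over environments the intervals were -0.10 to 0.14 for *Tac1* and -0.080 to 0.052 for *Ppp1r1b*, so differences of 0.3 or more in either direction lay outside both in this fit.

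To ask whether rearing changed these genes, EE and MS were each compared with SE within a genotype. None of the 4 genes was called in WT_EE/WT_SE, TG_EE/TG_SE, WT_MS/WT_SE or TG_MS/TG_SE, and 0% of all genes were called in each of these by edgeR. At an unadjusted p under 0.05 the tests held 762, 386, 777 and 523 of all genes in that order, and alternative fits, DESeq2 among them, called at most 3, 10, 60 and 0 genes, none of them one of the 4. The lowest p of the 4 genes was that of *Drd1* in WT_MS/WT_SE, at -0.17 (SE 0.059, interval -0.29 to -0.047, adjusted p = 0.636 by edgeR). *Ppp1r1b* had a similar estimate there, -0.16 (SE 0.062, adjusted p = 0.666). In WT_EE/WT_SE the estimates were -0.12 for *Drd1* (SE 0.054, adjusted p = 0.778), -0.23 for *Pdyn* (SE 0.101, adjusted p = 0.784), -0.095 for *Ppp1r1b* (SE 0.056) and 0 for *Tac1* (SE 0.103).

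In TG animals the estimates for rearing lay between -0.027 and 0.13. EE against SE gave 0.030 for *Drd1*, 0.13 for *Tac1*, 0.037 for *Pdyn* and 0.017 for *Ppp1r1b*, and MS against SE gave -0.007, 0.015, 0.13 and -0.027 in the same order, each with an interval that held 0. The WT and TG comparisons were set against each other by the interaction terms, where 0 of 4 genes were called by edgeR with 0% of all genes. At an unadjusted p under 0.05 the interaction with EE held 509 genes and that with MS 532, and alternative fits called at most 19 and 1 genes. The interaction of *Drd1* with MS was 0.16 (SE 0.080, adjusted p = 0.999 by edgeR) and that of *Pdyn* with EE was 0.27 (SE 0.156, adjusted p = 0.999). Averaged over genotypes, 0 of 4 genes were called for EE against SE, with 0.0079% of all genes, and 0 of 4 for MS against SE, with 0%, where 796 genes had an unadjusted p under 0.05 and alternative fits called at most 1.

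The direction of several of these estimates depended on whether surrogate variables were in the model. *Drd1* in TG_SE/WT_SE was -0.011 with them and 0.23 without them (SE 0.108, adjusted p = 0.49 by edgeR), the latter being the log2 ratio of the group means. When each run of 6 libraries, numbered in sequence and holding 1 animal of every group, had a term of its own and no surrogate variable was used, it was 0.24 (SE 0.101, adjusted p = 0.31). *Drd1* in TG_MS/WT_MS went the other way, from 0.15 with surrogate variables to -0.042 without (SE 0.108). For WT_MS/WT_SE the unadjusted estimates were 0.12 for both *Drd1* and *Ppp1r1b*, and the *Drd1* interaction with MS was -0.27 (SE 0.153, adjusted p = 0.995). None of these was called in either fit.

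The surrogate variables held 63.2% of the variance of *Drd1* within groups, 54.9% for *Ppp1r1b*, 35% for *Pdyn* and 30% for *Tac1*, against a median of 39.7% over all genes tested. Their overlap with the groups differed between the variables. Between 3.72% and 31.5% of the variance of each of the 5 variables lay between groups, and between 7.85% and 66.2% lay between runs of library numbers. An unrelated variable would also hold some variance between groups and between runs, and no test against that level was made. Whether the surrogate variables carry technical or biological variation was not tested.

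**Figure D2:**
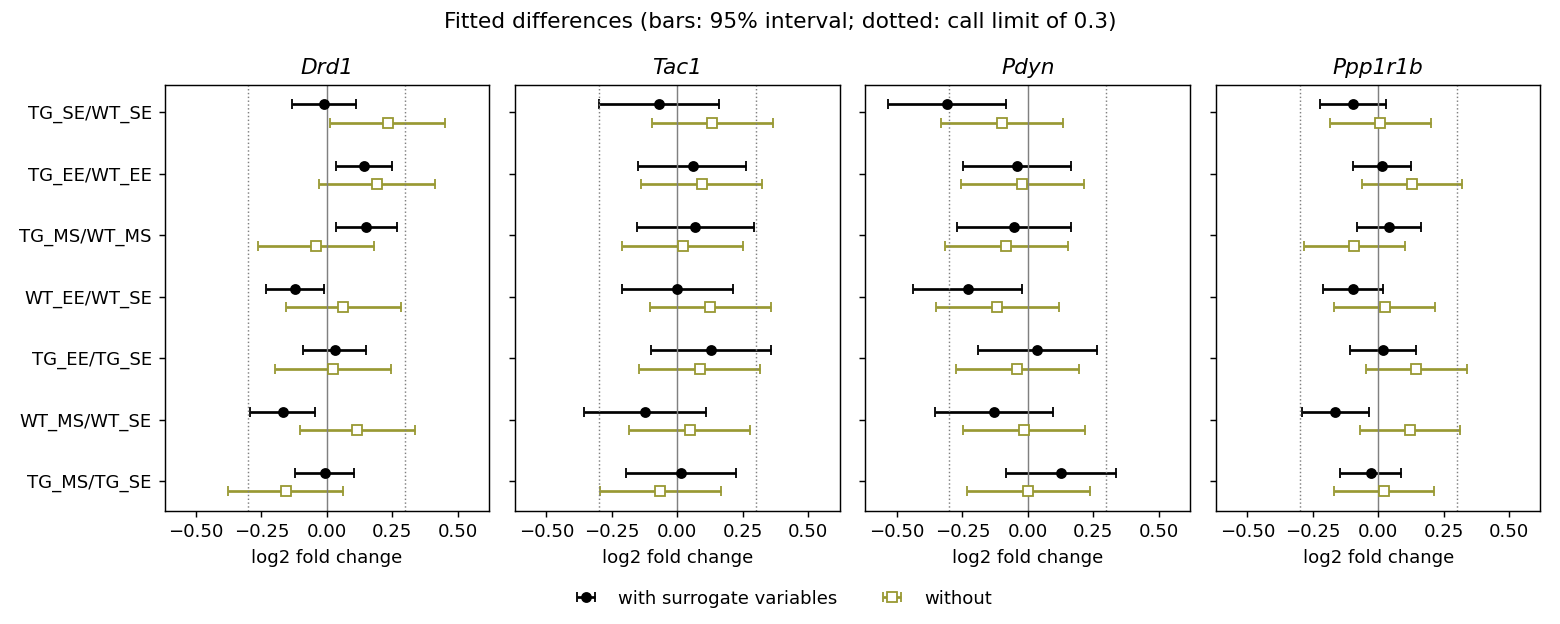
Fitted log2 fold changes (horizontal axis) with 95% intervals for 7 comparisons of 2 groups, with surrogate variables (filled) and without (open), where dotted lines mark the 0.3 needed for a call. *Drd1* moves from -0.011 to 0.23 in TG_SE/WT_SE and from 0.15 to -0.042 in TG_MS/WT_MS when surrogate variables are left out, and *Pdyn* in TG_SE/WT_SE is the estimate beyond 0.3.

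Within the runs of 6 libraries, each animal was set beside the animal of the other group from the same run. *Drd1* was higher in TG_SE than in WT_SE in 5 of 6 runs, with a median log2 ratio of 0.19 and a range from -0.005 to 0.60. It was higher in TG_EE than in WT_EE in 5 of 6 runs (median 0.27, from -0.10 to 0.35) and higher in TG_MS than in WT_MS in 2 of 6 (median -0.17, from -0.37 to 0.51). *Pdyn* was lower in TG in 4, 5 and 4 of 6 runs in SE, EE and MS. *Ppp1r1b* was higher in WT_MS than in WT_SE in 6 of 6 runs, by 0.010 to 0.24. The fit with surrogate variables gave a difference below 0 for the same groups. No other gene and comparison of 2 groups was on the same side in every run. Whether such a case exceeds what chance gives among these comparisons was not tested. The labels do not state what the library numbers stand for.

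Mean deviations from the group means also varied between the runs, and no test of this was made. In libraries 31 to 36, *Ppp1r1b* lay on average 0.20 below the group means on the log2 scale, with 5 of 6 libraries below, *Drd1* lay 0.14 below and *Tac1* lay 0.14 below, while *Pdyn* lay 0.025 below. In libraries 1 to 6, *Ppp1r1b* lay 0.15 above, with 6 of 6 libraries above their group means. Each run holds every group once, so each group has 1 library in every run.

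**Figure D3:**
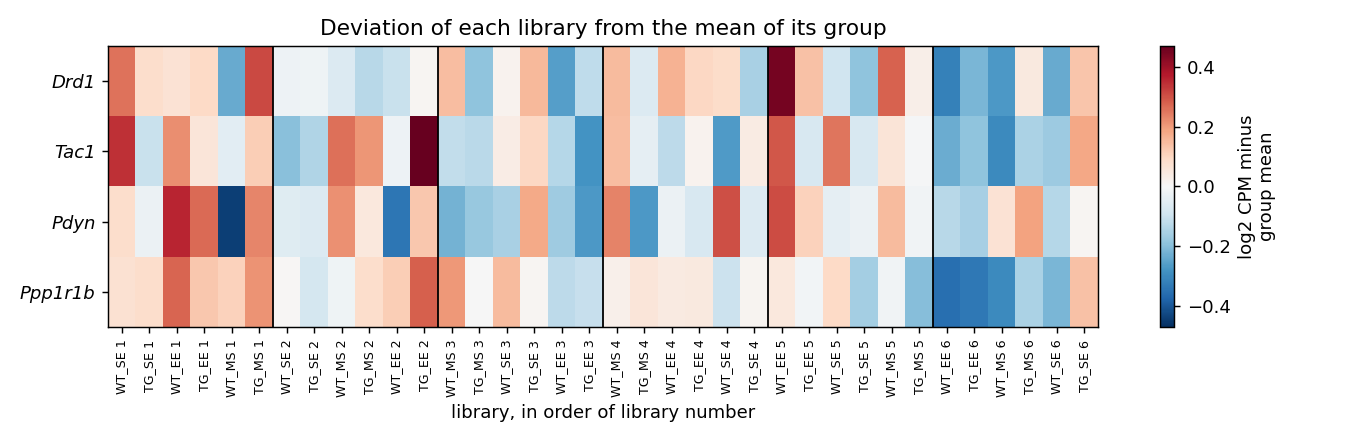
Colour gives the log2 CPM of each of the 36 libraries (columns, in order of library number) minus the mean of its group, for the 4 genes (rows), and black lines separate runs of 6 libraries. The last run is blue for *Ppp1r1b* in 5 of 6 libraries and the first is red in 6 of 6.

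The 4 genes moved partly together from animal to animal. After centring log2 CPM on the group means, all 4 lay on the same side of the mean in 17 of 36 libraries, 9 above and 8 below. Across the 36 libraries *Tac1* and *Ppp1r1b* had a Pearson r of 0.65 (permutation p = 0.00014, adjusted over 6 pairs 0.00084) and a Spearman rho of 0.65 (permutation p = 0.00016, adjusted 0.00096). Leaving out the 2 libraries farthest from the median of *Tac1* gave r = 0.61, and within runs r lay between 0.25 and 0.94. *Drd1* and *Pdyn* had r = 0.59 (permutation p = 0.0016, adjusted 0.0048) and rho = 0.58 (permutation p = 0.0015, adjusted 0.0045), with 0.55 after the same step and 0.28 to 0.95 within runs.

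The correlation of *Drd1* with *Ppp1r1b* was r = 0.52 (permutation p = 0.0049, adjusted 0.0098) and rho = 0.45 (permutation p = 0.015, adjusted 0.018), with 0.48 without the 2 farthest libraries and -0.081 to 0.90 within runs. That of *Drd1* with *Tac1* was r = 0.47 (permutation p = 0.0079, adjusted 0.012) and rho = 0.47 (permutation p = 0.0079, adjusted 0.016), with 0.36 and -0.14 to 0.83. That of *Tac1* with *Pdyn* was r = 0.43 (permutation p = 0.018, adjusted 0.022) and rho = 0.46 (permutation p = 0.012, adjusted 0.018), with 0.43 and -0.21 to 0.81. Each of these 3 pairs was positive in 5 of 6 runs, as was *Pdyn* with *Ppp1r1b*. *Pdyn* and *Ppp1r1b* had r = 0.16 (permutation p = 0.44, adjusted 0.44) and rho = 0.11 (permutation p = 0.57, adjusted 0.57), with 0.14 and -0.76 to 0.58. All tests were two-sided and permuted libraries within groups without regard to runs. Without libraries 31 to 36, the run in which *Drd1*, *Tac1* and *Ppp1r1b* lay lowest, *Drd1* with *Ppp1r1b* fell to r = 0.23 (permutation p = 0.30, adjusted 0.36) and *Drd1* with *Tac1* to r = 0.30 (permutation p = 0.11, adjusted 0.16), so both rest in part on that run. *Tac1* with *Pdyn* had an adjusted permutation p above 0.05 without any 1 of 4 of the runs, with r between 0.35 and 0.42. *Tac1* with *Ppp1r1b* (r from 0.50 to 0.70) and *Drd1* with *Pdyn* (r from 0.53 to 0.64) kept an adjusted p under 0.05 whichever run was left out. The libraries share their scaling to total counts and the composition of the dissected tissue, whose part in these correlations was not tested. In residuals from the fit with surrogate variables, *Tac1* with *Ppp1r1b* kept r = 0.69 (permutation p = 0.00018, adjusted 0.0011), the other 5 pairs had adjusted p between 0.46 and 0.71, and 3 of these had r below 0, among them *Drd1* with *Tac1* at -0.17.

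**Figure D4:**
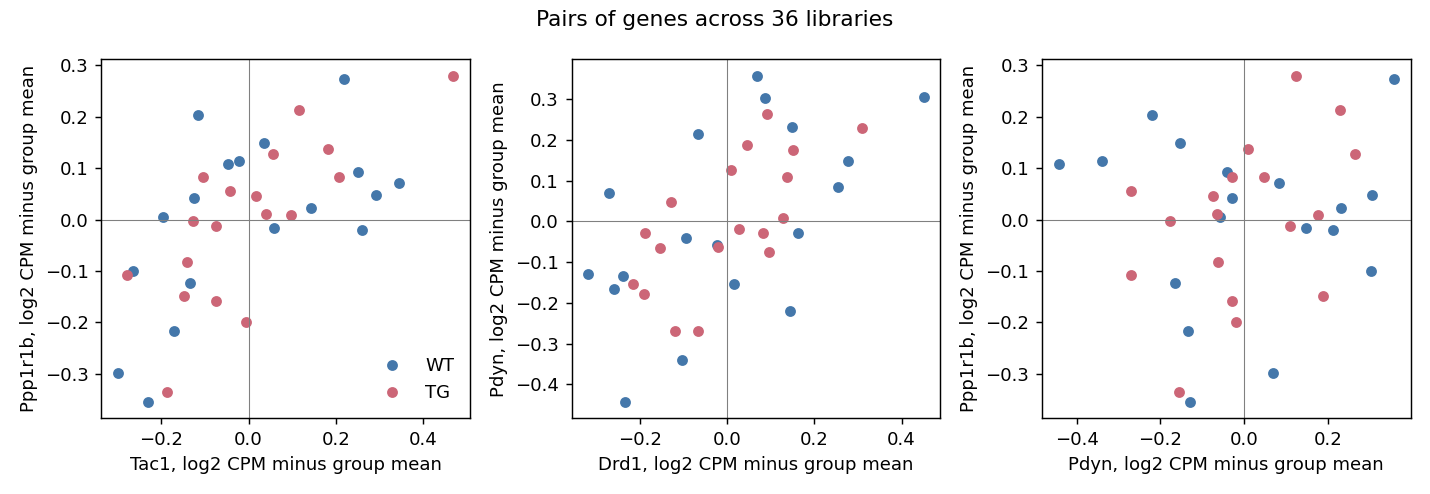
Each point is 1 of 36 libraries (blue WT, red TG), with both axes in log2 CPM minus the group mean, for *Tac1* and *Ppp1r1b* (r = 0.65), *Drd1* and *Pdyn* (r = 0.59) and *Pdyn* and *Ppp1r1b* (r = 0.16). The first 2 clouds rise from lower left to upper right and the third does not.

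Other genes tracked each of the 4 more closely than they tracked one another. By Pearson r across the 36 libraries on the same centred scale, the likest gene to *Drd1* was ENSRNOG00000031287 (r = 0.90), to *Tac1* ENSRNOG00000010350 (r = 0.79), to *Pdyn* ENSRNOG00000060544 (r = 0.80) and to *Ppp1r1b* ENSRNOG00000003800 (r = 0.92). The 5 likest genes of each did not include any of the other 3, and no gene was among the 5 likest of more than 1. Among all genes tested, *Ppp1r1b* ranked 26 in likeness to *Tac1* and *Tac1* ranked 190 in likeness to *Ppp1r1b*. *Drd1* ranked 39 in likeness to *Pdyn* and *Pdyn* ranked 233 in likeness to *Drd1*. The ranks of the remaining 4 pairs, read both ways, ran from 386 to 4188, the last being that of *Pdyn* and *Ppp1r1b*. An r of 0.48 for *Drd1*, 0.42 for *Tac1*, 0.39 for *Pdyn* and 0.51 for *Ppp1r1b* marked the upper 5% of all genes. The r of 0.466 for *Drd1* with *Tac1* lay below the mark of *Drd1* (0.478) and above that of *Tac1* (0.425). *Pdyn* with *Ppp1r1b* lay below the marks of both genes. The permutation tests of the pairs asked whether r differed from 0 and made no comparison with this background.

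A ratio of 2 genes within a library does not depend on the scaling of that library. These ratios were looked at after the levels had been seen and are descriptions. The count ratio of *Drd1* to *Pdyn* was 0.945 ± 0.101 in WT_SE (SD, n = 6) and 1.18 ± 0.0905 in TG_SE, where 5 of 6 TG libraries lay above every WT library. It was 1.07 ± 0.161 in WT_EE and 1.24 ± 0.123 in TG_EE, with 3 of 6 TG libraries above every WT library. In MS it was 1.05 ± 0.203 and 1.06 ± 0.106, with 0 of 6 above. The ratio of *Drd1* to *Ppp1r1b* was 0.0958 ± 0.0105 in WT_SE and 0.112 ± 0.00783 in TG_SE, again with 5 of 6 TG libraries above every WT library, and 0 of 6 in EE and in MS. In SE, 2 of 6 TG libraries lay above every WT library for *Tac1* to *Pdyn*. For *Drd1* to *Tac1*, *Tac1* to *Ppp1r1b* and *Pdyn* to *Ppp1r1b* it was 0 of 6. The groups overlapped for all 6 ratios in all 3 environments. Ratios of other genes were not looked at.

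**Figure D5:**
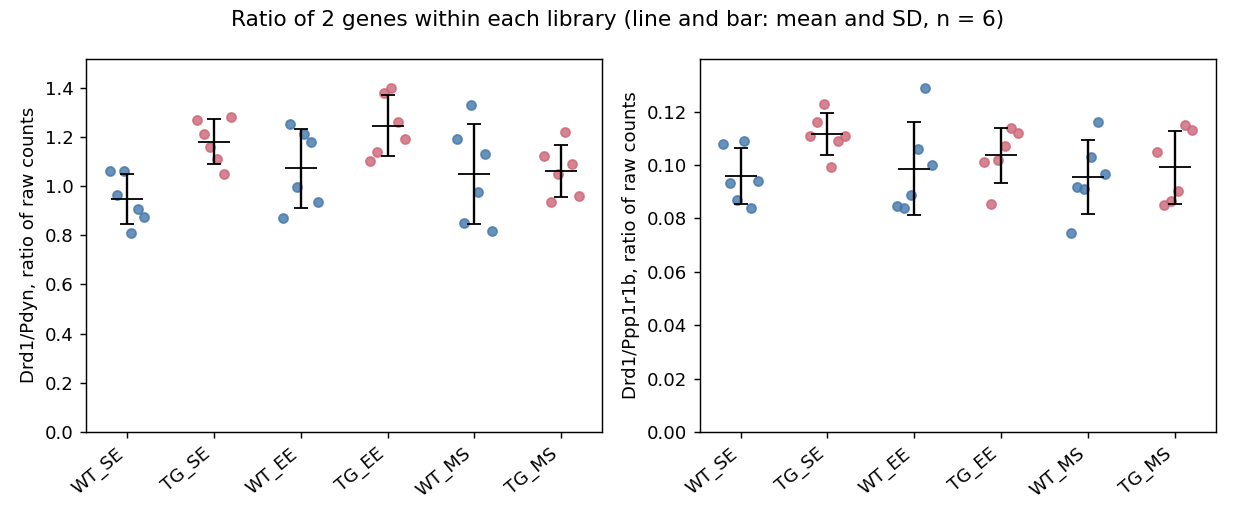
Ratio of the raw counts of *Drd1* to *Pdyn* (left) and of *Drd1* to *Ppp1r1b* (right) in each library by group, with the mean and SD of 6 animals in black. The mean of TG_SE lies above that of WT_SE in both panels, at 1.18 against 0.945 and 0.112 against 0.0958, and TG_MS lies near WT_MS. Of the ratios looked at, these had the most TG_SE libraries above every WT_SE library.

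Whole litters had been allocated to an environment, and the labels do not say which animals shared a litter. Animals of 1 group may therefore be siblings, and litter and environment cannot be fully told apart.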

How the data were processed

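Striatal poly(A) RNA of 36 rats was sequenced as 1 library per animal. The authors aligned reads with STAR 2.5.2b to the Ensembl rat genome v87 with the human *HTT* transgene added. The deposited values are the authors' raw counts per gene, not normalized, and the counting program is not given in the sources used here. Groups follow the genotype and environment labels. The tools were R 4.3.3, edgeR 4.0.16, sva 3.50.0 and DESeq2 1.42.0. The 12657 genes with a mean count of at least 50 were scaled by TMM and fitted with 6 group means and 5 surrogate variables from svaseq (permutation procedure of num.sv, seed 1, whereas its asymptotic procedure gave 0), and p-values were adjusted by Benjamini-Hochberg over all of them. Intervals are 95%, from the standard error and 25 residual degrees of freedom, or 30 without surrogate variables. Correlations used log2 CPM with a prior count of 2 and 100000 permutations within groups. Depth ranged from 9895073 to 19284439 counts, and precision is the SD of 6 animals or the standard error of the fit. The fitting procedure was also run on data simulated from the fitted model with surrogate variables, with added changes larger than the minimum fold. Its outcome is not given here. It cannot show whether the surrogate variables carry technical or biological variation, and it did not cover changes below the minimum fold.

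Named genes were the 4 genes and, for each, the 5 likest genes. Members and lists were chosen with earlier results of these data known. Lists of other pathway genes and cell type markers were also set, but no table used here links these symbols to Ensembl identifiers, so 0 of them could be matched, and these lists, markers of other cell types and huntingtin were not analysed here. Symbols of the 4 genes were given with the identifiers. Alternatives were 0 or 2 surrogate variables, runs of 6 library numbers as covariate, DESeq2 with and without surrogate variables, edgeR with the size factors of DESeq2, models of the compared groups alone, a mean count of at least 1, other thresholds, and each animal left out in turn.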

Additional observations from a re-analysis of the deposited data

Results flagged for a closer look

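In the 24 groups formed by the 4 genes and 6 groups of animals, 1 library stood apart by Dixon's test, where chance gives about 1 in 20. *Pdyn* in the third TG_SE library was 193.2 CPM, and the next highest TG_SE library was 172.1 CPM, a gap equal to 0.708 of the range of the group. This library lay within the WT_SE range of 163.6 to 224.6 CPM, and 1 other TG_SE library, at 163.4 CPM, lay just below it.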

How the results depend on the processing

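In 48 combinations of gene and comparison, 476 values came from alternatives other than leaving out an animal. Of these, 404 were counted as unchanged in direction and call, which includes sign changes with both estimates smaller than their standard errors. Another 71 had the opposite sign with at least 1 of the 2 estimates as large as its standard error. In all, 104 differed in sign by any amount. None of the 864 values with 1 animal left out was reversed by this rule, and all remained uncalled. Some small estimates still changed sign, as *Drd1* in TG_SE/WT_SE did, which ran from -0.055 to 0.014. The reversals came from fits without surrogate variables (16), with runs as covariate (18), with DESeq2 without surrogate variables (16), with only the groups compared (18) and with 2 surrogate variables (3). The first 4 of these fits held no surrogate variables, and the order of values in the next sentences is theirs.

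*Drd1* gave 0.232, 0.243, 0.231 and 0.232 in TG_SE/WT_SE, -0.042, -0.041, -0.042 and -0.042 in TG_MS/WT_MS, and 0.063, 0.055, 0.063 and 0.059 in WT_EE/WT_SE. It gave 0.116, 0.116, 0.115 and 0.113 in WT_MS/WT_SE, and 0.043, 0.033, 0.044 and 0.047 in EE/SE averaged over genotypes. Its interaction with EE was -0.040, -0.044, -0.038 and -0.034, and that with MS was -0.274, -0.284, -0.273 and -0.278. *Tac1* gave 0.134, 0.149, 0.132 and 0.133 in TG_SE/WT_SE, 0.126, 0.124, 0.125 and 0.122 in WT_EE/WT_SE, and 0.048, 0.047, 0.045 and 0.044 in WT_MS/WT_SE. *Ppp1r1b* gave 0.008, 0.016, 0.007 and 0.008 in TG_SE/WT_SE, 0.025, 0.018, 0.024 and 0.021 in WT_EE/WT_SE, and 0.121, 0.118, 0.119 and 0.118 in WT_MS/WT_SE. It gave 0.085, 0.075, 0.086 and 0.089 in EE/SE averaged over genotypes, 0.071, 0.065, 0.070 and 0.071 in MS/SE averaged over genotypes, and -0.099, -0.107, -0.098 and -0.103 for its interaction with MS. With runs and with only the groups compared, *Ppp1r1b* gave -0.091 and -0.091 in TG_MS/WT_MS, and *Pdyn* gave -0.006 and -0.001 in TG_MS/TG_SE. With 2 surrogate variables, *Pdyn* gave -0.002 in TG_MS/TG_SE, and *Drd1* gave -0.005 in TG_MS/WT_MS and -0.047 for the interaction with MS. The cause was not tested.

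Without a minimum fold, 1 of the 4 genes was called in TG/WT averaged over environments, *Drd1* at 0.094. In residuals of the fit with surrogate variables, 1 of 6 correlations had an adjusted p of at most 0.05, against 5, and r was -0.17 for *Drd1* with *Tac1*, -0.067 for *Drd1* with *Ppp1r1b* and -0.261 for *Pdyn* with *Ppp1r1b*. Leaving out each replicate number in turn left 3 to 5 pairs, with 3 without replicate 1, where *Drd1* with *Tac1* (r = 0.409) and *Tac1* with *Pdyn* (r = 0.397) were lost, and 3 without replicate 6, where *Drd1* with *Ppp1r1b* (r = 0.225) and *Drd1* with *Tac1* (r = 0.299) were lost. The number of all genes called ranged over the alternatives from 11 to 144 in TG_SE/WT_SE (27 in the fit reported), from 21 to 129 in TG_EE/WT_EE (52), from 9 to 31 in TG_MS/WT_MS (17) and from 64 to 612 in TG/WT averaged over environments (73). The labels give no replicate numbers, so those used here are the order within a group. The replicate numbers coincide with the runs of 6 library numbers. The fit reported did not pair animals by them, whereas the comparisons within runs set animals of the same run side by side. The fit with runs as covariate, which acts as a replicate block, called 0 of the 4 genes in every comparison, as did the fit reported. At the lowest raw count of 1458, differences between animals and not depth limit what can be seen.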
